A study of Homo sapiens with 12 samples.

Results

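Homeobox genes other than POU5F1 and NANOG were followed in the human embryonic stem cell line H1 after knockdown of OCT4, the product of POU5F1. The set held 55 named genes of the LIM, PRD and PAX, NK-like, HOX-like, TALE, sine oculis, POU, CUT and zinc finger classes, of 18852 named genes on the array. The members were taken by name, not by a threshold on their values, and all 90 probes annotated to them were used. The list was drawn up with earlier results of these data known, so its shares need not hold for homeobox genes in general. A gene counted as detected where a probe reached a detection p below 0.01 on 3 or more of the 12 arrays, and 31 of the 55 genes met this, through 40 probes. That share, 56.4%, lay beside 55.7% of all named genes (10506 of 18852).

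Transfection with Fugene followed seeding by a day, harvest came 2 or 3 days later, and total RNA was hybridised to Illumina bead arrays. The 4 groups of 3 arrays were OCT4 shRNA at day 2 (called knockdown), luciferase shRNA at day 2 (called control), OCT4 shRNA at day 3 and luciferase shRNA at day 3. All groups were of the H1 line and had passed through transfection with an shRNA, and the protocols name no selection of transfected cells. Whether replicates came from separate cultures is not stated, so the p-values cover only the spread between these samples, possibly a technical one.

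The homeodomain is a DNA-binding fold carried by a large family of transcription factors that set the body axis and choose cell identities in the embryo. Many of its members read short sites built around TAAT, and the TALE proteins act as partners that sharpen the site choice of others. OCT4 belongs to the POU class and holds the undifferentiated state of embryonic stem cells together with NANOG. Other homeobox genes mark the earliest steps out of that state, among them MIXL1 and GSC in the primitive streak, CDX and HOX genes along the trunk, and MSX and DLX genes where BMP signals act.

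In knockdown cells, 12 detected members of the LIM, PRD, NK-like, HOX-like and TALE classes were called higher at both days, where 7.85% of all genes were called the same way at both. Of these 12, 8 (CDX1, DLX5, GSC, LHX1, MEIS2, MSX1, MSX2 and PITX1) had fewer than 3 control arrays detected and passed the detection rule only with knockdown arrays, so nothing is read from that share. Among the 18 members detected on all 12 arrays, ISL1, MEIS3, MIXL1 and OTX2 (4) were called higher at both days, beside 6.46% of the 8704 genes so detected. MSX1 lay at least 6.34-fold above control at day 2 and at least 10.5-fold above it at day 3. LHX1 lay at least 4.79-fold higher at day 2. Its fitted rise at day 3 was 3.83 on the log2 scale, with 1 control array detected, so that size is not exact. MIXL1 rose by 3.33 at day 2 and 2.51 at day 3, and ISL1 by 2.33 and 2.21. DLX5 was undetected in both groups at day 2 and lay at least 4.71-fold higher in knockdown at day 3. HESX1, OTX1 and TGIF2 were lower at day 3, each by less than 1 on the log2 scale.

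Upstream sequences are shown for 4 of the genes called higher at both days, the streak genes MIXL1 and GSC and the related MSX1 and MSX2, since they let the letters before the start sites be compared. They come from RefSeq (build GRCh38.p14) and run from 250 bases before to 50 bases after the annotated start, read 5′ to 3′ on the gene's strand. MIXL1 (chr1:226223414-226223713, plus strand) has the TCF/LEF site CTTTGAT in capitals, GSC (chr14:94770064-94770363, minus strand) a TATA box letter match, TATAAA, and MSX2 (chr5:174724332-174724631, plus strand) the homeodomain core TAATTA. MSX1 (chr4:4859415-4859714, plus strand) held none of the 6 motifs searched and has no capitals.
MIXL1: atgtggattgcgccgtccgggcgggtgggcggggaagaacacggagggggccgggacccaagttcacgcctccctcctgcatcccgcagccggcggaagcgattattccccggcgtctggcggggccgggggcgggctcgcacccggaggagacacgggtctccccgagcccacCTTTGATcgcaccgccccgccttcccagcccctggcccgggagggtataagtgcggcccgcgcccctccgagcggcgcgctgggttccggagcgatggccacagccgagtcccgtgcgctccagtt
GSC: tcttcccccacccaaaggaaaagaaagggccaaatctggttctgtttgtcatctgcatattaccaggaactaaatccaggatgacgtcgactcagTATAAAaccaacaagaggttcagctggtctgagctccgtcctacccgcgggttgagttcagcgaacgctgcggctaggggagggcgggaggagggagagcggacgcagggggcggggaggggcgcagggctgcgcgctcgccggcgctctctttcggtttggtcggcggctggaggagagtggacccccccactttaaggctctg
MSX1: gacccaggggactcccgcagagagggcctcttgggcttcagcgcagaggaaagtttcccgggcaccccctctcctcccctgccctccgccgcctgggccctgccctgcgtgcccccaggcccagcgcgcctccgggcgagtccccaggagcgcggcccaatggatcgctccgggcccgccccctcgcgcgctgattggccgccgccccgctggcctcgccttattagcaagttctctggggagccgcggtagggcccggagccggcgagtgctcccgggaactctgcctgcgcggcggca
MSX2: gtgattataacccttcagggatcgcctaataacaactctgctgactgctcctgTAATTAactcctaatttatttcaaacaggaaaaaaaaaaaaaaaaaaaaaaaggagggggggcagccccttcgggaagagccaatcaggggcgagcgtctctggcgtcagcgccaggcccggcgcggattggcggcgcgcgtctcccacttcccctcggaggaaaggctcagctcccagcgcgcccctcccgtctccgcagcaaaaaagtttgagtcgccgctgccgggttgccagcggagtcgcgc

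RefSeq promoter entries were matched for 40 of the 55 members, including 9 of the 14 that were higher at day 3 (ISL1, MSX1, MSX2, GSC, MIXL1, OTX2, PITX1, MEIS2 and MEIS3). CDX1, LHX1, DLX5, IRX3 and ZHX2 had no entry. Both strands were searched for exact letters, and none of the 6 motifs contains another. The octamer core TGCAAAT, part of the site read by OCT4 and other POU factors, occurred in 3 of the 40 member windows (LHX6, CDX2 and TGIF2), against 4.20% of all 35114 windows of that length. None of the 9 windows of risen genes held it. CTTTGAT was found in 4 member windows and 2.62% of all windows, TAATTA in 1 and 4.84%, and the bicoid-type site TAATCC in 2 and 6.36%. The TALE site TGACAG stood in 5 member windows and 15.8% of all windows, and TATAAA in 1 and 11.5%. In MIXL1 the CTTTGAT match began at -76 from the start, in GSC the TATAAA match at -155 and in MSX2 the TAATTA match at -197. The ISL1 window held TAATCC at -218. These are letter matches, and they say nothing of binding in these cells. Member windows had a median GC content of 66.8%, against 58.7% in all windows.

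The knockdown was visible in its target on every array. POU5F1 had normalised log2 intensities of 10.73, 11.01 and 10.34 in knockdown and 13.14, 12.92 and 12.69 in control at day 2, a fall by 2.23 (SE 0.19, adjusted p = 6.85e-06, limma). At day 3 it had 9.95, 10.52 and 10.29 in knockdown and 13.09, 13.26 and 13.29 in control, and it fell by 2.96 (adjusted p = 1.24e-07). NANOG fell by 0.63 at day 2 (adjusted p = 0.0470) and by 1.94 at day 3 (adjusted p = 3.39e-06). Arrays had 13343 to 14969 of 48803 probes detected and correlated at 0.974 to 0.992 within groups, across genes, which are not independent replicates. Between 20 and 29 of the 31 members that passed detection were detected on an array. Replicate 3 of every group stood apart on the second principal component, which held 17.2% of the variance. The pluripotent cell markers measured were all detected, with 0 of 9 higher and 8 lower at day 3. Of 14 stromal and fibroblast markers, 10 were detected, and 7 of these were higher and 1 lower in knockdown at day 3 (5 and 1 at day 2), while DCN, FBN1 and POSTN were undetected on every array. Their summed linear intensity was 23042 to 35271 in knockdown and 11127 to 17500 in control at day 3, and 14847 to 22797 against 12747 to 17513 at day 2. Of 5 neuron markers, all detected, 3 were higher at day 3 and 1 at day 2, with sums of 5301 to 8065 in knockdown and 3135 to 4383 in control at day 3, and 4889 to 7464 against 3966 to 5557 at day 2, and the blood markers PTPRC, CD34 and HBG1 were undetected. The part of these cells in the homeobox results was not tested. In bulk RNA of this kind, fewer cells of a type and less RNA per cell cannot be told apart.

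Detection is shown by group in the map of arrays. Of the 55 members, 18 were detected on all 12 arrays and 19 on none. The 19 undetected genes were LHX2 and LHX5, PAX6, DLX1, DLX2, DLX4 and NKX2-5, CDX2, EVX1, HOXB2 and HOXB9, MEIS1 and IRX1, SIX3 and SIX6, POU3F2, SATB1, ZEB1 and ZHX1. They include the eye and forebrain factor PAX6, the heart factor NKX2-5 and the trophectoderm and gut factor CDX2. Not being detected gives a bound and does not show that a gene is silent. Among TALE genes 10 of 13 were detected and among PRD and PAX genes 6 of 7, against 3 of 9 NK-like and 2 of 7 HOX-like genes. LIM genes gave 4 of 6, zinc finger genes 3 of 6, and sine oculis, POU and CUT genes 1 each of 3, 2 and 2. Of the 31 members that passed, CDX1, DLX5, MEIS2, MSX1, MSX2 and PITX1 (6) were detected on knockdown arrays alone and HOXB6 on control arrays alone, as were 219 and 67 of the 10506 genes that passed. With LHX1 and GSC, each detected on 1 control array, 8 members passed the rule only with knockdown arrays (474 of all genes). HHEX, GBX2 and IRX5, on 2 arrays each, and DLX3 and ZEB2, on 1 each, were also detected in knockdown alone and did not pass.

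**Figure D1:**
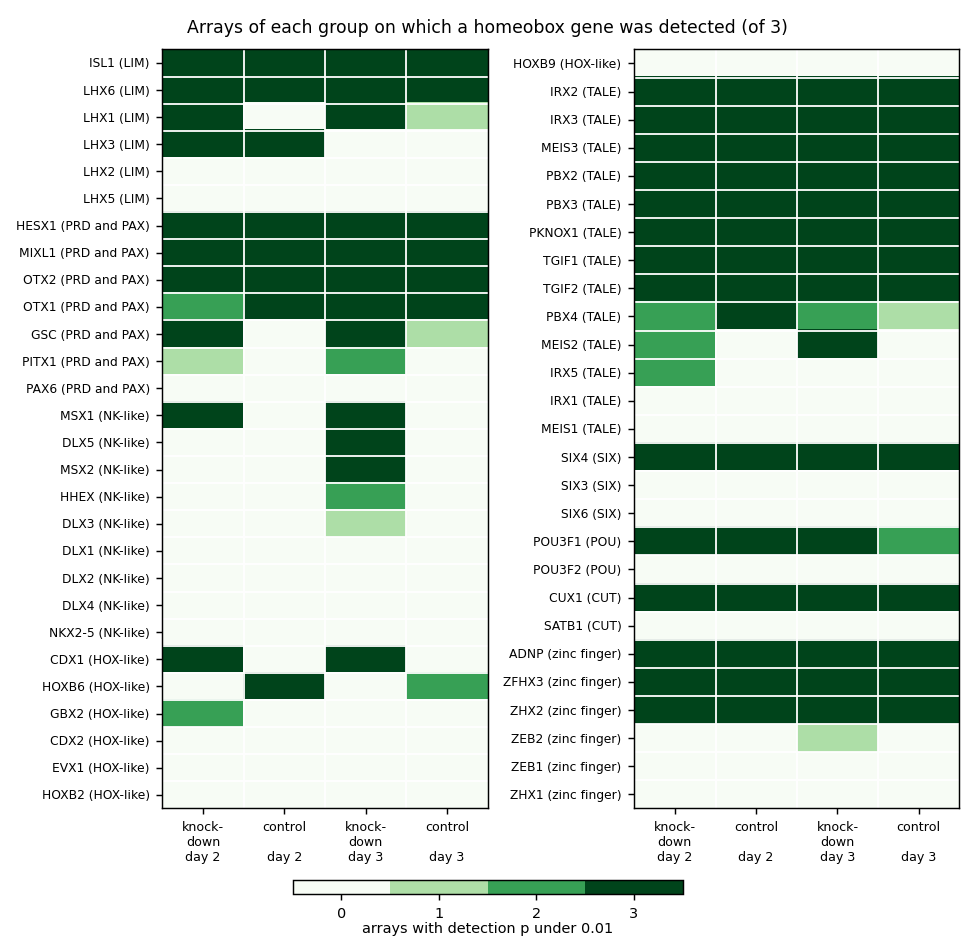
Number of arrays, of 3 in each group, on which each of the 55 homeobox genes had a detection p under 0.01 (darker green, more arrays; columns are knockdown and control at day 2, then at day 3), with the class in brackets. The map shows 18 genes detected on all 12 arrays, 19 on none, and MSX1, CDX1, MEIS2, DLX5, MSX2, PITX1, HHEX, GBX2, IRX5, DLX3 and ZEB2 detected in knockdown alone.

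At day 2, 13 of the 31 detected members were higher in knockdown at an adjusted p under 0.05 (two-sided, Benjamini-Hochberg adjustment over all 10506 genes) and 0 were lower, where 5.69% of all genes were called higher and 2.97% lower (8.66% in all). With an unadjusted p under 0.05, 18 members were counted, where 20.3% of all genes were. At day 3, 14 members were higher and 3 lower, where 14.3% of all genes were called higher and 15.3% lower (29.6% in all). With replicate numbers fitted as a block, 15 members were higher and 6 lower at day 3, where 4536 of the 10506 genes were called. Without the block, fitted rises of at least 2-fold were called for 8 members at day 2 (2.69% of all genes) and 13 at day 3 (6.66%). The 13 include the 8 genes that passed detection only with knockdown arrays, so nothing is read from these shares. At day 3 the lower bounds were under 2-fold for CDX1 (1.16), MEIS2 (1.95), MSX2 (1.12) and PITX1 (1.04). Knockdown and control arrays did not overlap for 14 higher and 1 lower member at day 2, where this held for 12.0% and 12.1% of all genes. For day 3 the numbers were 14 higher and 7 lower, beside 19.2% and 23.8% of all genes. The 12 members called at both days include DLX5 and MSX2, whose day 2 values were below detection in both groups. The comparisons at day 2 and day 3 use separate arrays. They share the normalisation, the detection rule and the estimate of spread, so they are not independent. Among the 18 members detected on all 12 arrays, which could not pass through 1 group, 5 were higher and 0 lower at day 2 (4.53% and 2.64% of the 8704 genes so detected). At day 3, 6 of these 18 were higher and 2 lower (12.2% and 15.3%). The median log2 change over the 31 members was 0.50 at day 2 and 0.15 at day 3, against -0.04 and -0.07 over all genes tested. These medians include the 8 genes that passed only with knockdown arrays and stand as a description. With undetected groups set at the detection level the medians were 0.13 and 0.09 for the members, and -0.04 and -0.07 for all genes.

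**Figure D2:**
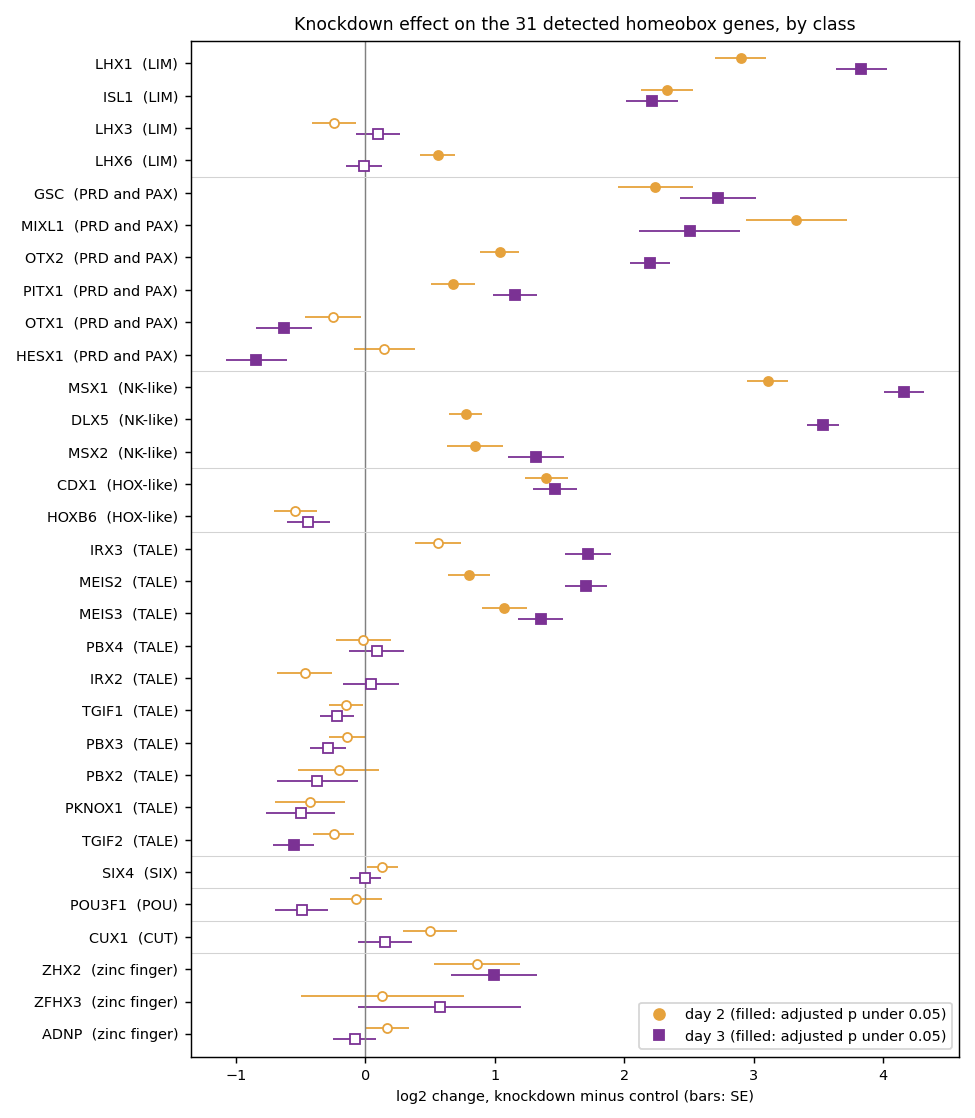
Log2 change (knockdown minus control, x axis, bars showing the SE) of the 31 detected homeobox genes at day 2 (circles) and day 3 (squares), grouped by class. Filled symbols, with an adjusted p under 0.05, lie on the right for 13 genes at day 2 and 14 at day 3, and on the left only for HESX1, OTX1 and TGIF2 at day 3. The day 2 points of DLX5 and MSX2 and the day 3 point of LHX3 rest on values below detection in both groups.

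Of the 4 detected LIM genes, 3 were higher at day 2 and 2 at day 3, with 0 lower at either day. Among all genes 5.69% were called higher and 2.97% lower at day 2, and 14.3% and 15.3% at day 3. LHX1 passed detection only with knockdown arrays. LHX1, a factor of the head organizer and of the kidney, had log2 intensities of 8.24, 8.06 and 8.17 in knockdown and 5.24, 5.17 and 5.36 in control at day 2. On day 3 its values were 9.62, 9.41 and 9.20 in knockdown and 6.04, 5.57 and 5.14 in control. The groups were far apart at both days, and control replicate 1 of day 3, the only control array on which LHX1 was detected, was the highest of the controls. At day 2 LHX1 was undetected in control, and knockdown exceeded it at least 4.79-fold (adjusted p = 8.52e-07, n = 3 per group). At day 3 its fitted rise was 3.83 (SE 0.20, adjusted p = 1.20e-08), a size that is not exact with 1 control array detected. The difference between the LHX1 effects at day 3 and day 2 was 0.93 and missed the threshold (adjusted p = 0.121). Without control day 3 replicate 1, LHX1 was undetected on the remaining controls. ISL1, a factor of motor neurons and heart progenitors, had 8.73, 9.40 and 8.69 in knockdown against 6.69, 6.49 and 6.66 in control at day 2. Day 3 gave 9.47, 10.04 and 9.73 in knockdown against 7.74, 7.38 and 7.48 in control. ISL1 was detected on all 12 arrays, and every knockdown array exceeded every control array. Its rise was 2.33 at day 2 (SE 0.20, adjusted p = 6.43e-06) and 2.21 at day 3 (SE 0.20, adjusted p = 2.55e-06).

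LHX6, a factor of cortical interneurons, rose by 0.56 at day 2 (SE 0.14, adjusted p = 0.0217). That call was lost without knockdown day 2 replicate 1 or 3 or without control day 2 replicate 1 or 2, and with only the 6 arrays of day 2 (adjusted p over the alternatives 0.00652 to 0.0937). The other LHX6 probe, of another transcript, had a change of 0.03 at day 2 (adjusted p = 0.945), so the probes differed in their call. At day 3 the log2 change of LHX6 was -0.01 (adjusted p = 0.963). LHX3, a factor of motor neurons and the pituitary, had a day 2 change of -0.24 (SE 0.17, adjusted p = 0.484) and was detected on all 6 arrays of day 2 and on none of day 3. Only 1 of its 5 probes was detected on any array.

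Among the 6 detected PRD and PAX genes, 4 were higher and 0 lower at day 2, and 4 were higher and 2 lower at day 3. The shares of all genes were 5.69% higher and 2.97% lower at day 2, and 14.3% and 15.3% at day 3. GSC and PITX1 passed detection only with knockdown arrays. MIXL1, a factor of the primitive streak and of mesendoderm, had 9.44, 10.09 and 9.36 in knockdown and 6.43, 6.50 and 5.97 in control at day 2. By day 3 the values were 8.94, 9.88 and 9.09 in knockdown and 7.88, 6.22 and 6.29 in control. The groups did not overlap at either day, but control day 3 replicate 1 lay well above the other controls. MIXL1 rose by 3.33 at day 2 (SE 0.39, adjusted p = 9.06e-05) and by 2.51 at day 3 (SE 0.39, adjusted p = 2.94e-04), or by 3.05 without that control array. GSC, a repressor of the organizer and the anterior streak, had 6.93, 7.55 and 6.71 in knockdown and 4.76, 4.99 and 4.72 in control at day 2. The day 3 values were 7.80, 8.08 and 7.89 in knockdown and 6.01, 4.69 and 4.90 in control. The same control array, replicate 1 of day 3, was again the highest of its group and the only control array on which GSC was detected. GSC was undetected in control at day 2, and knockdown exceeded it at least 2.24-fold (adjusted p = 2.35e-04). At day 3 the fitted rise of GSC was 2.72 (SE 0.29, adjusted p = 1.23e-05). With 1 control array detected that size is not exact, and it ran from 1.84 to 3.13 over the alternatives. Without that control array GSC was undetected on the remaining controls of day 3. Without background correction the fitted day 2 change of GSC was 1.38 in place of 2.24.

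OTX2, a factor of the epiblast, the head and the forebrain, had 9.66, 9.95 and 9.86 in knockdown and 8.52, 8.84 and 8.99 in control at day 2. On day 3 its values were 11.03, 10.94 and 10.83 in knockdown and 8.93, 8.64 and 8.63 in control. Knockdown arrays lay above control arrays at both days, and further above them at day 3. OTX2 rose by 1.04 at day 2 (SE 0.15, adjusted p = 6.56e-04) and by 2.20 at day 3 (SE 0.15, adjusted p = 2.15e-07). Its other detected probe rose by 1.79 at day 3 (adjusted p = 0.00202) and had a change of 0.87 at day 2 that missed the threshold (adjusted p = 0.183). PITX1, a factor of the hindlimb and the pituitary, was close to the detection level, with 5.81, 5.81 and 5.53 in knockdown and 4.99, 5.12 and 5.00 in control at day 2. Day 3 gave 5.64, 6.02 and 6.32 in knockdown and 4.86, 4.66 and 5.00 in control. It was detected on 1 knockdown array at day 2, on 2 at day 3 and on no control array, and the groups did not overlap. At day 3 PITX1 exceeded control at least 1.04-fold in knockdown (adjusted p = 1.95e-04). The day 2 call (adjusted p = 0.0235) gives no fold, and it was lost without knockdown replicate 1 or 2 or any 1 of the controls of day 2, without background correction and with the authors' log2 values (adjusted p over the alternatives 0.00961 to 0.104). The fitted day 3 change of PITX1 was 0.66 without background correction, in place of 1.15.

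HESX1 and OTX1 went the other way at day 3. HESX1, a repressor of the forebrain and the pituitary and a gene of undifferentiated human embryonic stem cells, had 6.92, 7.49 and 6.51 in knockdown and 7.96, 7.94 and 7.55 in control at day 3. It fell by 0.84 (SE 0.24, adjusted p = 0.0162), and lost its call without knockdown day 3 replicate 1 or 3 or control day 3 replicate 1 or 2 (adjusted p over the alternatives 6.18e-04 to 0.0692). OTX1, the relative of OTX2 that acts in the cortex, had 5.90, 6.35 and 6.34 in knockdown and 6.48, 6.86 and 7.14 in control. Its fall by 0.63 (SE 0.22, adjusted p = 0.0432) passed in 7 of 20 alternatives (adjusted p 0.0220 to 0.171), and it was -0.41 without background correction and -0.37 with the authors' log2 values. Among single arrays, any of knockdown at day 3, control replicates 2 and 3 of day 3, knockdown replicates 1 and 3 of day 2 and control replicate 3 of day 2 ended that call when left out. At day 2 the log2 changes were 0.15 for HESX1 and -0.25 for OTX1, neither past the threshold (adjusted p = 0.809 and 0.590).

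All 3 detected NK-like genes were called higher at both days, where 7.85% of all genes were called the same way at both. Each was detected on knockdown arrays alone and passed the detection rule through them, so nothing is read from that count. MSX1, a repressor induced by BMP in limb and face, had 8.86, 8.56 and 8.27 in knockdown and 5.62, 5.42 and 5.32 in control at day 2. By day 3 the values were 9.45, 9.23 and 9.30 in knockdown and 5.25, 5.06 and 5.19 in control. Every knockdown array was clear of every control array, and MSX1 was undetected in all 6 controls. It exceeded control at least 6.34-fold at day 2 (adjusted p = 6.28e-08) and at least 10.5-fold at day 3 (adjusted p = 8.79e-10). DLX5, a BMP-responsive factor of face and bone, had 5.33, 5.66 and 5.38 in knockdown and 4.66, 4.68 and 4.71 in control at day 2. The day 3 values were 8.10, 8.22 and 8.18 in knockdown and 4.70, 4.54 and 4.65 in control. Only the knockdown arrays of day 3 detected DLX5, and they were close to each other. It exceeded control at least 4.71-fold in knockdown at day 3 (adjusted p = 6.03e-10), and the day 2 call (adjusted p = 0.00132) gives no fold because both groups were undetected.

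MSX2, the close relative of MSX1, had 5.21, 6.06 and 5.33 in knockdown and 4.54, 4.71 and 4.81 in control at day 2. On day 3 its values were 5.88, 6.50 and 5.91 in knockdown and 4.73, 4.84 and 4.76 in control. Replicate 2 was the highest knockdown array at both days, and the groups did not overlap at either. At day 3 MSX2 exceeded control at least 1.12-fold in knockdown (adjusted p = 4.75e-04), and its fitted change was 1.32, or 0.76 without background correction. At day 2 both groups were undetected, and the call (adjusted p = 0.0271) was lost without knockdown replicate 2 or any 1 of the controls of day 2 (adjusted p over the alternatives 0.00209 to 0.111). Of the other NK-like genes, HHEX, a factor of anterior endoderm, liver and blood, was detected on 2 knockdown arrays of day 3, with 6.41, 6.66 and 5.55 in knockdown against 4.89, 4.95 and 4.86 in control. DLX3, a relative of DLX5, was detected on 1 knockdown array of day 3 and on no other.

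**Figure D3:**
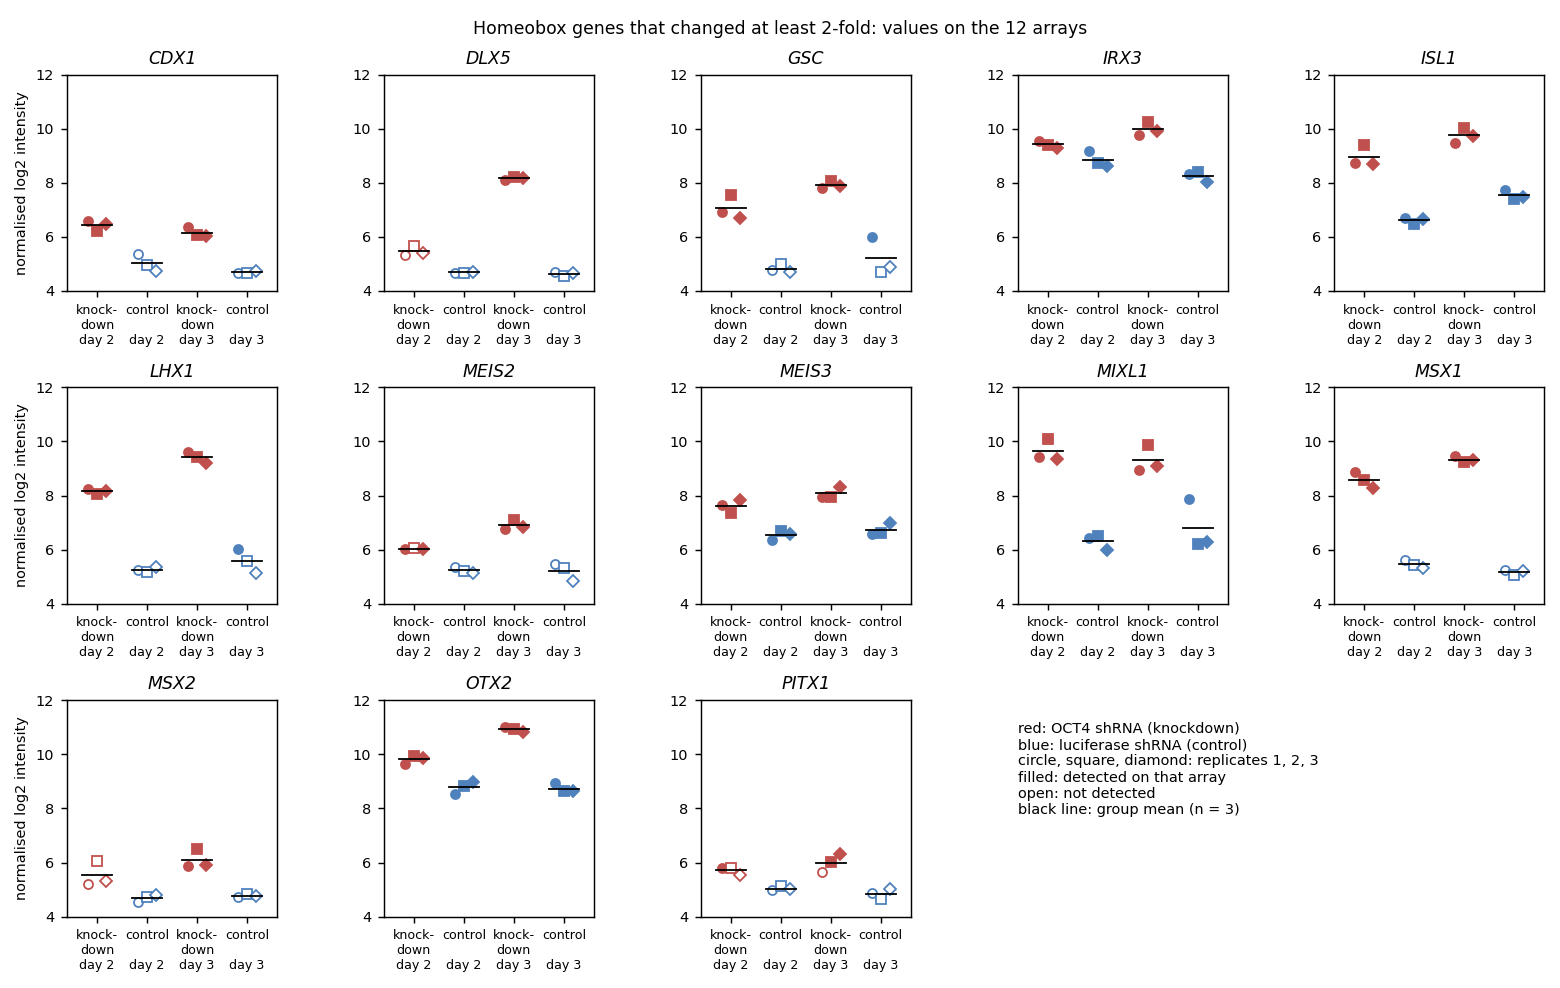
Normalised log2 intensity (y axis) on each of the 12 arrays for the 13 homeobox genes called with a fitted change of at least 2-fold. Knockdown is in red and control in blue, at day 2 and then day 3. Symbols mark replicates, open symbols undetected values and black lines the mean of 3. Control day 3 replicate 1 stands above the other controls in GSC, MIXL1 and LHX1, and DLX5 is detected in knockdown at day 3 alone.

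Of the HOX-like genes only CDX1 and HOXB6 were detected. CDX1, a caudal factor of the posterior axis and the gut, had 6.58, 6.22 and 6.46 in knockdown and 5.37, 4.95 and 4.75 in control at day 2. Day 3 gave 6.36, 6.08 and 6.01 in knockdown and 4.66, 4.65 and 4.75 in control. It was detected on all knockdown arrays and on no control array. CDX1 exceeded control at least 1.44-fold at day 2 (adjusted p = 1.21e-04) and at least 1.16-fold at day 3 (adjusted p = 2.33e-05). The fitted changes of CDX1 were 1.40 and 1.46, and 0.80 and 0.87 without background correction. HOXB6, of the HOXB cluster, was detected on all 3 control arrays of day 2 and 2 of day 3, and on no knockdown array. This came from 1 of 2 probes, the other being undetected on every array. Knockdown detection p-values of the detected probe were 0.0105 to 0.0250, close to the cutoff of 0.01. Values of HOXB6 at day 3 were 5.70, 5.54 and 5.75 in knockdown against 6.36, 6.18 and 5.76 in control. The log2 changes of HOXB6, -0.54 at day 2 and -0.44 at day 3, missed the threshold (adjusted p = 0.0616 and 0.0623), although neither day had overlapping groups. With the replicate block the adjusted p of HOXB6 at day 3 was 0.0285. GBX2, a factor of the boundary between midbrain and hindbrain, was detected on 2 knockdown arrays of day 2, with 6.28, 5.85 and 5.96 in knockdown and 5.74, 5.71 and 5.36 in control.

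Of the 10 detected TALE genes, 2 were higher at day 2, and 3 were higher and 1 lower at day 3. Beside them, 5.69% of all genes were called higher at day 2, and 14.3% higher and 15.3% lower at day 3. MEIS2 passed detection with knockdown arrays alone. MEIS2, a partner of PBX and HOX proteins, had 6.01, 6.08 and 6.02 in knockdown and 5.34, 5.22 and 5.14 in control at day 2. By day 3 the values were 6.77, 7.11 and 6.82 in knockdown and 5.45, 5.31 and 4.83 in control. It was detected on 2 knockdown arrays at day 2, on all 3 at day 3 and on no control array. These values come from 1 of 4 MEIS2 probes, the others being undetected on every array. MEIS2 exceeded control at least 1.10-fold at day 2 (adjusted p = 0.00684) and at least 1.95-fold at day 3 (adjusted p = 4.31e-06). Without background correction its fitted changes were 0.43 and 1.02, in place of 0.80 and 1.70. MEIS3, of the same family, had 7.65, 7.36 and 7.84 in knockdown and 6.36, 6.68 and 6.59 in control at day 2. The day 3 values were 7.95, 7.96 and 8.33 in knockdown and 6.58, 6.61 and 6.99 in control. MEIS3 was detected on every array and its groups were apart at both days. It rose by 1.07 at day 2 (SE 0.17, adjusted p = 0.00132) and by 1.36 at day 3 (SE 0.17, adjusted p = 5.56e-05), and its other probe rose by 1.04 and 1.19. The only other MEIS gene measured, MEIS1, was undetected.

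IRX3, an Iroquois factor of neural and limb patterning, had 9.56, 9.39 and 9.30 in knockdown and 9.19, 8.75 and 8.62 in control at day 2. On day 3 its values were 9.77, 10.24 and 9.91 in knockdown and 8.33, 8.39 and 8.04 in control. The groups did not overlap at day 2 but lay close, and at day 3 they were well apart. IRX3 rose by 1.72 at day 3 (SE 0.18, adjusted p = 8.96e-06), while its day 2 change of 0.56 missed the threshold (adjusted p = 0.0709). IRX5, another Iroquois gene, was detected on 2 knockdown arrays of day 2, with 6.29, 5.40 and 6.22 in knockdown and 5.66, 5.03 and 5.72 in control. IRX2 had a day 2 change of -0.47 and a day 3 change of 0.04 (adjusted p = 0.239 and 0.908).

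TGIF2, a corepressor in TGF-beta signalling, had 8.66, 8.82 and 8.62 in knockdown and 9.22, 9.38 and 9.15 in control at day 3, with no overlap. It fell by 0.55 (SE 0.16, adjusted p = 0.0173), and lost its call without knockdown day 3 replicate 1 or 3 or control day 3 replicate 2 (adjusted p over the alternatives 0.00107 to 0.0706). TGIF1, the related corepressor, had 4 detected probes, with log2 changes of -0.46 to 0.01 at day 2 and -0.37 to 0.03 at day 3. Its brightest probe missed the threshold at both days (adjusted p = 0.591 and 0.229), and 1 other probe was called lower at day 2 (-0.46, adjusted p = 0.0482 over all probes). The HOX partners PBX2, PBX3, PBX4 and PKNOX1 had log2 changes of -0.43 to -0.02 at day 2 and -0.50 to 0.09 at day 3, and none passed. With the replicate block PKNOX1 was called lower at day 3 (-0.50, adjusted p = 0.0399).

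Among 6 detected genes of the sine oculis, POU, CUT and zinc finger classes, 0 were called at day 2 and 1 at day 3. The shares called among all genes were 8.66% and 29.6%. ZHX2, a zinc finger and homeobox repressor, had 10.25, 10.49 and 9.68 in knockdown and 9.25, 9.61 and 8.58 in control at day 3. Replicate 3 was the lowest of its group in all 4 groups, by 0.69 to 0.94 below the mean of the others. ZHX2 rose by 1.00 at day 3 (SE 0.33, adjusted p = 0.0377) and had a change of 0.86 at day 2 (adjusted p = 0.151). The replicate block gave the day 3 rise an adjusted p of 3.07e-05 (SE 0.13). The day 3 call was lost without a detection filter, without any 1 of knockdown day 3 replicates 1 and 2, control day 3 replicates 1 and 3 and knockdown day 2 replicate 1 (adjusted p over the alternatives 3.07e-05 to 0.142). Its other probe was called higher at both days, by 0.79 (adjusted p = 0.00196) and 0.84 (adjusted p = 3.61e-04). ZFHX3 had replicate 3 apart in the other direction, 1.46 to 1.61 higher in every group. Its day 3 change of 0.57 had an adjusted p of 0.538, and of 0.0137 with the replicate block. POU3F1, a POU factor of the epiblast and of glia, had a day 3 change of -0.49 (adjusted p = 0.0851, and 0.0389 with the replicate block). Without control day 3 replicate 2 its change was -0.76 (adjusted p = 0.00465). SIX4, CUX1 and ADNP had log2 changes of 0.13 to 0.50 at day 2 and -0.08 to 0.15 at day 3, none past the threshold. ZEB2, a repressor of E-cadherin, was detected on 1 knockdown array of day 3, with 5.83, 5.26 and 5.52 in knockdown against 4.61, 4.59 and 4.61 in control.

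**Figure D4:**
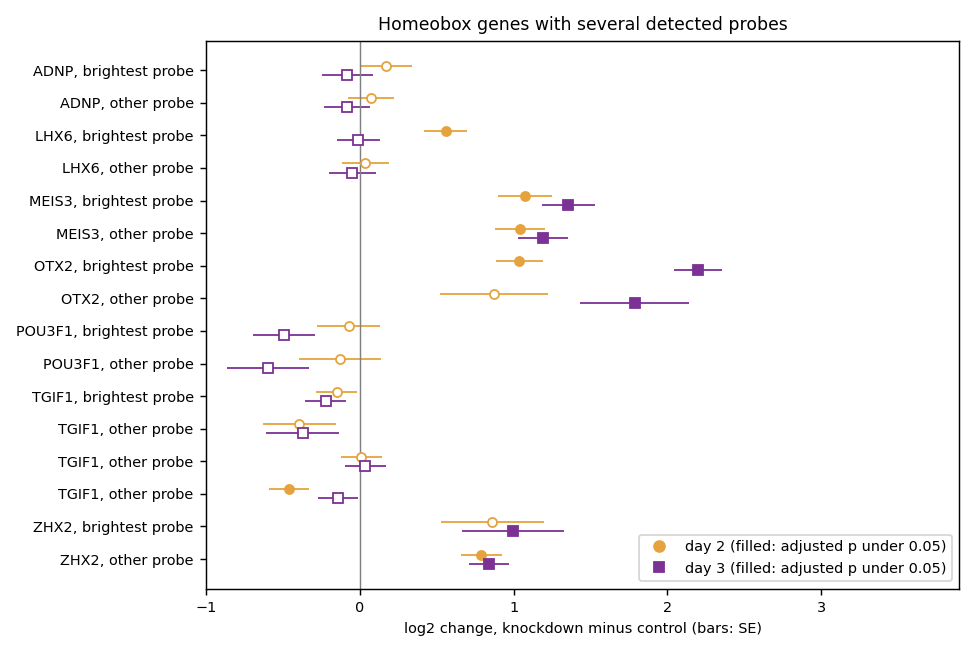
Log2 change (knockdown minus control, x axis, bars showing the SE) for each detected probe of the 7 homeobox genes with more than 1, at day 2 (circles) and day 3 (squares). Filled symbols have an adjusted p under 0.05 over all probes. The probes of MEIS3 and ZHX2 lie close to each other, at 1.04 to 1.36 and 0.79 to 1.00, whereas only the brightest LHX6 probe is called at day 2.

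The signed effect of the knockdown was higher at day 3 than at day 2 for 4 members, by the test of the difference between the effects. Of all genes, 1.73% were called with a difference above 0 and 0.581% with one below 0 (2.31% in all). The difference was 1.16 for OTX2 (SE 0.22, adjusted p = 0.0113) and 1.15 for IRX3 (SE 0.25, adjusted p = 0.0287). From day 2 to day 3, OTX2 changed by 1.11 in knockdown and -0.05 in control. IRX3 changed by 0.55 in knockdown and -0.60 in control, neither past the threshold (adjusted p = 0.0923 and 0.202). MSX1 had a fitted difference of 1.05 (SE 0.22, adjusted p = 0.0243), taken against controls undetected at both days, so its size is not exact. DLX5 had a fitted difference of 2.76 (SE 0.18, adjusted p = 5.01e-06), of which the day 2 side was below detection. The IRX3 call was lost without any 1 of replicates 2 and 3 of knockdown and 1 and 2 of control at day 2, and of replicate 2 of knockdown and 1 and 3 of control at day 3 (adjusted p over the alternatives 0.00485 to 0.0715). That of MSX1 was lost without any 1 of replicate 2 of knockdown and 1 and 2 of control at day 2, and of replicate 1 of knockdown and 2 of control at day 3 (0.00196 to 0.0758). MIXL1 had a difference of -0.82 (adjusted p = 0.638), ISL1 of -0.12 (adjusted p = 0.950) and CDX1 of 0.07 (adjusted p = 0.970), none past the threshold.

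Within knockdown cells, 6 members were higher and 3 lower at day 3 than at day 2, where 3.91% of all genes were called higher and 1.87% lower (5.78% in all). DLX5 lay at least 4.89-fold higher at day 3 (adjusted p = 5.19e-08). LHX1 rose by 1.25 (adjusted p = 0.00160), OTX2 by 1.11 (adjusted p = 5.61e-04) and MEIS2 by 0.86 (adjusted p = 0.00623). ISL1 rose by 0.81 (adjusted p = 0.0313) and MSX1 by 0.76 (adjusted p = 0.0109), and both calls were lost with only the 6 knockdown arrays (adjusted p = 0.105 and 0.0558). Over the same days ISL1 changed by 0.92 in control, with no overlap (adjusted p = 0.0830, and 0.0149 with the replicate block). ISL1 also lost its call without any 1 of replicates 1 and 3 of day 2 and 2 and 3 of day 3, and MSX1 without knockdown day 3 replicate 1. LHX3 was undetected on the knockdown arrays of day 3 and lay at least 1.54-fold lower than at day 2 (adjusted p = 0.00346). LHX6 fell by 0.75 (adjusted p = 0.00521), while its other probe had a change of -0.11 (adjusted p = 0.777). POU3F1 fell by 0.78 (adjusted p = 0.0393), the call of POU3F1 holding in 9 of 20 alternatives (0.00785 to 0.131) and being lost without any 1 array of knockdown at day 3, replicates 1 and 2 of knockdown or replicates 1 and 3 of control at day 2. With the replicate block GSC, IRX3, MEIS3 and MSX2 were called higher at day 3 as well (adjusted p = 0.0453, 0.0246, 0.0276 and 0.0281).

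Within control cells, LHX3 was the 1 member called, lower at day 3 than at day 2, where 0.114% of all genes were called higher and 0.133% lower (0.247% in all). Its values in control were 5.56, 5.15 and 5.38 at day 3 and 6.78, 6.42 and 6.84 at day 2, and in knockdown 5.60, 5.23 and 5.55 at day 3 and 6.36, 6.67 and 6.28 at day 2. All 6 arrays of day 3 thus lay below all 6 of day 2 for this probe, 1 of 5 for LHX3. The other probes were undetected on every array. In control LHX3 lay at least 1.68-fold lower at day 3 (adjusted p = 0.00612), a call lost without control day 2 replicate 1 (0.0561, the highest adjusted p of all alternatives; the lowest was 6.58e-04). With the replicate block 4 members were called, IRX2 and IRX3 being lower and ISL1 higher at day 3 besides LHX3 (adjusted p = 0.0130, 0.0389 and 0.0149).

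Homeobox genes outside the set were measured beside them. Of 131 on the array, 26 were detected, where 55.7% of all named genes were. Of these 26, 4 were higher and 1 lower at day 2, and 7 were higher and 3 lower at day 3. Among all genes 5.69% were called higher and 2.97% lower at day 2, and 14.3% and 15.3% at day 3. HLX, BARX1 and PKNOX2 passed detection on knockdown arrays alone, and HLX was called at day 2 though undetected in both groups. HLX, an NK-like factor of gut and liver mesenchyme, was detected on the 3 knockdown arrays of day 3 alone and lay at least 4.47-fold higher there (adjusted p = 4.75e-09). NKX3-2 and PKNOX2 were undetected in control at day 3 and knockdown exceeded it by at least 2.33-fold and 1.60-fold (adjusted p = 2.80e-06 and 2.07e-05). BARX1 was undetected in control at both days and lay at least 1.75-fold higher at day 2 and at least 1.24-fold higher at day 3. EMX1 rose by 1.81 and 1.49 (adjusted p = 0.00571 and 0.00682), and ALX1 by 1.37 at day 3 (adjusted p = 1.67e-04). EMX1 was detected on 2 control arrays at day 2 and on 1 at day 3, so its sizes are not exact. TSHZ3 fell by 1.33 at day 2 and had a log2 change of -1.89 at day 3 (adjusted p = 1.15e-04 and 1.39e-06), and HMX2 at day 3, not detected in knockdown, lay at least 1.41-fold below control (adjusted p = 6.28e-04).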

How the data were processed

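Total RNA of 12 H1 samples was read on Illumina bead arrays. The deposited table holds a linear probe intensity and a detection p-value per array, with no normalisation recorded, per the file headers; scanner software is not given in the sources used here. Another deposited table holds the authors' log2 values (log2 intensity from which 1 constant per array and a baseline for each probe were taken, column medians -0.0146 to 0.0136), used as an alternative; the samples behind that baseline stayed unknown. Gene names came from GEO's platform annotation, which ties 28098 probes to 1 gene, 13 to several and 20692 to none, and 28059 matched RefSeq by Entrez identifier. Intensities were corrected and quantile normalised with neqc (limma 3.58.1, R 4.3.3, offset 16). Probes detected on at least 3 arrays were kept, the brightest stood for a gene, and 4 group means were fitted with lmFit and eBayes, with Benjamini-Hochberg adjustment over 10506 genes. Adjusted p-values in the text are limma's unless said otherwise. The fit was tested on simulated data. Where a group was undetected, a lower bound compares the other group's mean with, per array, the higher of the lowest detected signal and the probe's own. Array number limits precision.

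Members and lists were chosen with earlier results of these data known. Array values are given for members called with a log2 change of at least 1 at either day or a different effect between days; other called members get their changes; at most 6 of the 31 detected members, if not called, have values of their own. Outside that rule, after values were seen, array values were added for HESX1, OTX1, TGIF2, ZHX2, LHX3 and HOXB6, and DLX3, GBX2, HHEX, IRX5 and ZEB2, which did not pass detection, were named. Sample titles give numbers 1 to 3 in each group. Deviations from group means of equal numbers correlated at 0.389 to 0.738 at day 3, 0.220 to 0.724 in knockdown and 0.214 to 0.666 in control across days, and were taken as pairs there; at day 2 number 1 gave 0.022. The labels do not say what a number marks.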

Additional observations from a re-analysis of the deposited data

Results flagged for a closer look

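The knockdown effect differed between the days, by the test of the difference itself, for DLX5 (2.76 on the log2 scale, adjusted p = 5.01e-06), OTX2 (1.16, adjusted p = 0.0113), IRX3 (1.15, adjusted p = 0.0287) and MSX1 (1.05, adjusted p = 0.0243). Each was higher at day 3, on 3 of 3 knockdown arrays above every control array. For IRX3 the change from day 2 to day 3 was 0.55 in knockdown and -0.60 in control. MSX1 was undetected in the controls of both days, so its size is not exact. The day 2 values of DLX5 were below detection in both groups, and its difference ran from 1.94 to 2.86 over the alternatives.

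Some members outside the tests were detected on knockdown arrays alone, at a detection p under 0.01. Their controls were in part close to that cutoff. In control at day 2 the detection p was 0.0145, 0.0105 and 0.0316 for GBX2. For IRX5 it was 0.0185, 0.0659 and 0.0105. HHEX was detected on 2 knockdown arrays, both of day 3. GBX2 was detected on 2 knockdown arrays, both of day 2, and IRX5 likewise on 2 of day 2. With no detection filter HHEX was called higher at day 3 (1.31, adjusted p = 0.00139), as was ZEB2 (0.93, adjusted p = 0.00534), detected on 1 knockdown array. In the same fit GBX2 and IRX5 at day 2 had changes of 0.43 and 0.50 that missed the threshold (adjusted p = 0.159 and 0.383).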

How the results depend on the processing

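Of 44 called results of single members, 31 were called in every alternative they were run in (12 that left out an array and up to 8 others), and 7 of the 10 uncalled day 2 and day 3 results run under every alternative (those of members called elsewhere) were never called. The number of members changed was 10 to 14 at day 2 and 13 to 17 at day 3 when each array was left out in turn, 2 to 5 for the difference between days, 7 to 10 within knockdown and 0 to 3 within control. The low count of 2 for the difference came without knockdown day 2 replicate 2, control day 2 replicate 1 or control day 2 replicate 2, and the 0 within control without control day 2 replicate 1. Without knockdown day 2 replicate 2, 3 members were called within control. With only the 6 control arrays 2 members were called within control, in place of 1. A fit of only 6 arrays cannot give the difference between days. The replicate block raised the members called to 7 for the difference (LHX1 and MEIS2 with a difference above 0 and HESX1 with one below 0 being added) and to 4 within control, and gave 17 at day 2, 21 at day 3 and 13 within knockdown. At day 2 the block called IRX3 (0.56, adjusted p = 0.0193), ZHX2 (0.86, adjusted p = 3.53e-04), CUX1 (adjusted p = 0.0218) and HOXB6 (adjusted p = 0.0226), and it ended no call of a member. Over all genes the block called 1815 at day 2, 4536 at day 3, 756 for the difference, 1611 within knockdown and 450 within control, against 910, 3114, 243, 607 and 26 without it, and 357 were called within knockdown from the 6 arrays alone. Over all genes the counts without 1 array ran from 598 to 953 at day 2 and from 5 to 54 within control, the low count of 598 coming without control day 2 replicate 1 and the counts of 5 and 54 without control day 2 replicate 1 and knockdown day 2 replicate 2. Within control, 10, 7 and 10 genes were called without control day 2 replicate 2, control day 2 replicate 3 and control day 3 replicate 2. The difference fell to 154 genes without knockdown day 3 replicate 1. Within knockdown 370, 385 and 366 genes were called without knockdown day 2 replicate 1, knockdown day 3 replicate 1 and knockdown day 3 replicate 2.

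IRX3 at day 2 was also called with median scaling (adjusted p = 0.0442) and without control day 2 replicate 1 (adjusted p = 0.0295). Signs turned for results that were not called. Over single arrays left out, HESX1 at day 2 ran from -0.046 (without knockdown day 2 replicate 2) to 0.33. POU3F1 at day 2 ran from -0.19 to 0.025 (without knockdown day 2 replicate 3), and was 0.0079 without control day 2 replicate 1. LHX3 at day 3 ran from -0.011 (without control day 3 replicate 2) to 0.21. LHX6 at day 3 was 0.075 with median scaling, 0.057 with the authors' log2 values, 0.050 without knockdown day 3 replicate 1 and from -0.10 to 0.092 (without control day 3 replicate 2) over single arrays left out. The cause of these changes was not tested. The count of members detected was 44 at a detection p under 0.05 on 3 or more arrays and 36 with 1 array at under 0.01. Signals near background limit the sizes given for CDX1, MSX2, PITX1 and MEIS2. The fitted sizes of GSC, LHX1, DLX5 and MSX1 are limited as well, by controls that were mostly or wholly undetected.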
